A study of Mus musculus with 8 samples.

Results

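The genes described here are 10 markers of adult neurogenesis and cell division: Hopx, Mki67, Top2a, Eomes, Neurod1, Sox4, Sox11, Dcx, Igfbpl1 and Draxin. They were chosen by name, and all 10 were found among the 19558 genes of the table, with 21 of its 74764 transcripts. The study sequenced polyadenylated RNA from the hippocampus of wild-type C57BL/6 KP mice treated at postnatal day 40. In the 4 KU55933 mice the agent was KU55933, a small-molecule inhibitor of the DNA damage kinase ATM, and in the 4 vehicle mice it was DMSO, at 4% in saline. Both were given through the nose under anesthesia, with a stated dosage of 7.5 mg/kg, and no other allele or agent is named. The labels give neither the time from dosing to collection nor how the hippocampus was dissected, and the extraction text also gives RNA inputs for hypothalamus and PFC, which the labels do not explain. They give n = 4 per group and mention no pooling of mice.

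In the dentate gyrus of the hippocampus, neurons continue to be born after birth. Radial glia-like stem cells divide to give intermediate progenitors, these give neuroblasts, and neuroblasts become immature and then mature granule neurons. Each step has its own transcription factors and cytoskeletal proteins, and the dividing cells switch on genes of replication and mitosis, so that a small set of mRNAs is used to follow the lineage in tissue. ATM acts at the DNA damage checkpoint, which holds dividing cells, and the comparison of KU55933 with vehicle is the single one the design contains.

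Sequences are shown for the genes on which the results below turn, to place the Hopx transcripts and the cell division genes Mki67 and Top2a. Hopx has a pair of annotated starts on chromosome 5, and the 150 bases before each are given 5′ to 3′ from RefSeq (GRCm38.p6, minus strand). The downstream start, which serves nearly all Hopx mRNA in these libraries, follows chr5:77095268-77095417, and the upstream start follows chr5:77115124-77115273.
Hopx, before the downstream start: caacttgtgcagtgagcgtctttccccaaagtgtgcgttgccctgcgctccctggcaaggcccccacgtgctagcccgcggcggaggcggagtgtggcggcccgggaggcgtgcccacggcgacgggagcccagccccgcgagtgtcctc
Hopx, before the upstream start: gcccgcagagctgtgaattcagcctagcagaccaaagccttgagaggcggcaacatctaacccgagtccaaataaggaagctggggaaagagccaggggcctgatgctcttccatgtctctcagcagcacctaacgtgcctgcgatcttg
The downstream stretch held 72.0% GC and the upstream one 56.0%, against a median of 54.0% over the 32851 promoters of the table.

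Mki67 and Top2a, the members of the cell division machinery, are shown with the same window from the same source, at chr7:135716380-135716529 and chr11:99024190-99024339, both on the minus strand. Capitals mark the letters TTTGAA or TTCGAA of the cell cycle genes homology region, a promoter element of genes of late cell cycle, and CCAAT boxes, each searched on both strands.
Mki67: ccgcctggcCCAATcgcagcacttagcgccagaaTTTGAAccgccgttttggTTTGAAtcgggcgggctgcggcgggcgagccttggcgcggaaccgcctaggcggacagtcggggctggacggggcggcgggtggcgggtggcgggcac
Top2a: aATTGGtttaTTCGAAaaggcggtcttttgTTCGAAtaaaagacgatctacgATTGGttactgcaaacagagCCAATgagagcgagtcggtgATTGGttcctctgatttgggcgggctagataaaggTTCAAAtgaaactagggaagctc
Mki67 held 2 matches to the first element and 1 CCAAT box, and Top2a 3 and 4. Of all promoters in the table, 9.7% held the first element in this window, 24.5% a CCAAT box and 2.43% both. A match is a description of letters and not a measured site. Promoters were listed for 9 of the 10 genes, and the first element was found in Mki67 and Top2a alone among these.

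The libraries held 40586998 to 46630341 estimated counts in vehicle and 34190440 to 37499003 in KU55933. Some properties differed between the groups as a whole: the share of mitochondrially encoded mRNA was 4.36 to 4.77% in vehicle and 5.08 to 5.48% in KU55933. The slope of expression on transcript GC content was 0.14 to 0.27 log2 per 10 percentage points in vehicle and -0.35 to -0.12 in KU55933. This trend runs with the groups without overlap, and the gene-level change of each member is therefore also given from a fit that took out, library by library, the dependence on base composition and length as an offset. The markers listed for granule neurons, pyramidal neurons and other cell types of hippocampal tissue were all detected. Choroid plexus markers, led by Ttr, a thyroid hormone carrier of that epithelium, summed to 1175 and 1251 normalised CPM (counts scaled to a common library size and adjusted for library composition) in KU55933 1 and 2 and to 52.9 to 114 in the other libraries.

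Hopx was the member that differed between the groups, and it was lower in KU55933. The other 9 members did not pass the test, in either direction. By edgeR's quasi-likelihood test, adjusted over 15481 genes, 1 of 10 members was called at an adjusted p under 0.05, whereas 21.6% of all tested genes were called, 14.6% lower and 6.92% higher. All 10 passed the filter on low counts. The count at an unadjusted p under 0.05 was 2, Hopx and Igfbpl1, against 37.8% of all genes, and limma-voom called 1 member, against 20.7% of all genes, 6.33% higher and 14.3% lower. DESeq2 also called 1, where it called 31% of the genes it tested, 12.9% higher and 18.1% lower. With replicate number as a block 1 was called, against 28.7% of all genes, 11.1% higher and 17.6% lower. With the offset 1 member was again called, Hopx, against 1.96% of all genes, 0.672% higher and 1.29% lower, and 2 had an unadjusted p under 0.05, Hopx and Neurod1, against 15.9% of all genes. The median log2 change of the members was -0.06, with 4 above and 6 below 0, beside 0.01 over all tested genes. In these tissue samples, fewer cells of a type and less RNA per cell cannot be told apart.

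**Figure D1:**
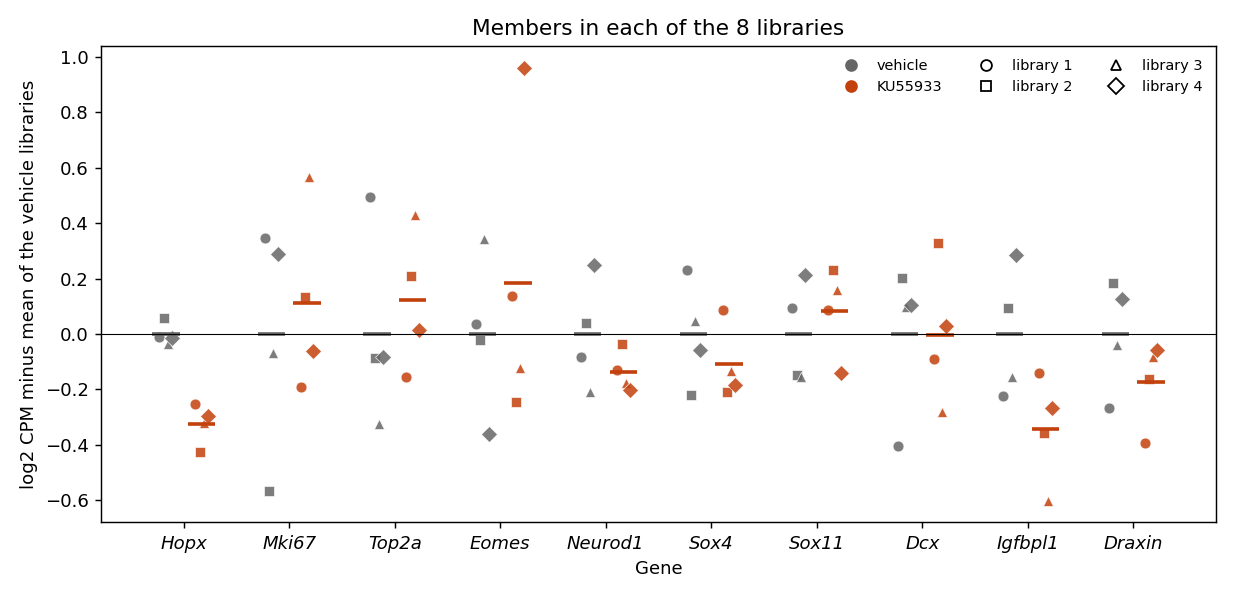
Level of each gene in each library, as log2 normalised CPM minus the mean of the 4 vehicle libraries; grey marks are vehicle, orange marks KU55933, shapes give the library number and bars the group means. All 4 KU55933 marks of Hopx lie under all 4 vehicle marks, and the marks of every other gene overlap between the groups.

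Hopx (ENSMUSG00000059325), a homeodomain-only protein used as a marker of quiescent radial glia-like stem cells and also made by astrocytes, had 58.0, 60.8, 57.0 and 57.8 normalised CPM in vehicle 1 to 4. In KU55933 1 to 4 it had 49.1, 43.4, 46.8 and 47.6 CPM. Every KU55933 library lay below every vehicle library, and the vehicle libraries lay close together. Groups that did not overlap with KU55933 lower were found for 15.9% of all tested genes. The means were 58.4 ± 1.68 and 46.7 ± 2.39 CPM (SD, n = 4 per group), a 1.25-fold fall. The log2 change was -0.32 ± 0.07 (SE, edgeR adjusted p = 0.00766), with a 95% interval of -0.47 to -0.18. With the GC and length offset it was -0.44 ± 0.06 (edgeR adjusted p = 0.00643). With each library left out in turn it lay between -0.35 and -0.29, with edgeR adjusted p of 0.00943 to 0.0311. Without KU55933 1 and 2, the libraries high in choroid plexus markers, it was -0.30 (edgeR adjusted p = 0.0329).

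Astrocytes, which also make Hopx, were followed by 11 markers, and the share of Hopx mRNA from each cell type was not measured. Their summed level was 5405 to 6502 CPM in vehicle and, in KU55933, 5255 to 6867 CPM, so the groups overlapped. Of the 11, 0 rose and 2 fell, where 6.92% of all tested genes were called higher and 14.6% lower. An unadjusted p under 0.05 was found for 4 of them, against 37.8% of all genes, while DESeq2 called 1 higher and 2 lower. The fallen ones were Fgfr3 and Gfap, a fibroblast growth factor receptor and the glial intermediate filament, chosen after their values were seen. With the offset, or without KU55933 1 and 2, 0 of the 11 were called, and 1 of them fell without vehicle 2, 3 or 4 or KU55933 1, 2 or 4. Without vehicle 1, 2 rose, and without KU55933 2, 1 rose. Gfap, which stem cells share with astrocytes, had 379 to 403 CPM in vehicle and, in KU55933, 248 to 332 CPM. Its log2 change was -0.43 (edgeR adjusted p = 0.0141) and with the offset -0.22 (adjusted p = 0.175). Slc1a2, the glutamate transporter gene and the most abundant of the list, had a log2 change of 0.16 (edgeR adjusted p = 0.427) and of -0.04 with the offset. The median log2 change of the list was 0.16. The part of astrocytes in the Hopx difference was not tested beyond these values.

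The genes of cell division, Mki67 and Top2a, did not differ detectably between the groups. Mki67 (ENSMUSG00000031004), the chromosome surface protein Ki-67 of cycling cells, had 3.82, 2.03, 2.87 and 3.67 CPM in vehicle and, in KU55933, 2.63, 3.30, 4.44 and 2.88 CPM. Top2a (ENSMUSG00000020914), the topoisomerase that untangles DNA before mitosis, had 3.82, 2.55, 2.16 and 2.55 CPM in vehicle and, in KU55933, 2.43, 3.13, 3.65 and 2.74 CPM. Vehicle 1 was the highest vehicle library for both genes, and KU55933 3 was the highest KU55933 library for both. KU55933 1 was the lowest of its group for both. The lowest vehicle library differed, being vehicle 2 for Mki67 and vehicle 3 for Top2a. The log2 changes were 0.10 ± 0.23 for Mki67 and 0.11 ± 0.20 for Top2a (SE, edgeR adjusted p = 0.784 and 0.734). The 95% intervals ran from -0.40 to 0.60 and from -0.34 to 0.56, and changes within them are not excluded by these data. Mki67 was counted 82 to 174 times and Top2a 83 to 174 times per library. With the offset both values turned to -0.07, and neither passed (edgeR adjusted p = 0.910 and 0.899). Without KU55933 3 they were -0.08 and -0.00.

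Eomes and Neurod1 are transcription factor genes of the middle of the lineage. Eomes (ENSMUSG00000032446), which encodes the Tbr2 protein of intermediate progenitors, had 1.34, 1.29, 1.65 and 1.02 CPM in vehicle and, in KU55933, 1.43, 1.10, 1.20 and 2.54 CPM. KU55933 4 lay above all other libraries, and the other 3 of its group lay within the vehicle range. The log2 change was 0.24 ± 0.28 (SE, edgeR adjusted p = 0.560), and it turned to -0.09 without KU55933 4. Eomes was counted 39 to 90 times per library, and for the lowest of these the exact Poisson interval of 27.7 to 53.3 counts (95%, counting error only) shows the precision. Neurod1 (ENSMUSG00000034701), a basic helix-loop-helix factor that late progenitors and young granule neurons need to survive and mature, had 27.3, 29.7, 24.98 and 34.3 CPM in vehicle and, in KU55933, 26.4, 28.2, 25.6 and 25.1 CPM. The groups overlapped, with vehicle 4 the highest. The log2 change of Neurod1 was -0.14 ± 0.10 (SE, edgeR adjusted p = 0.322). With the offset it was -0.33 ± 0.10, with an unadjusted edgeR p of 0.00603 and an adjusted p of 0.127.

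Sox4 and Sox11 encode the SoxC transcription factors, which act together in committed neuroblasts to open the neuronal program, and Sox4 is also made by oligodendrocyte precursors. Sox4 (ENSMUSG00000076431) had 20.4 to 27.9 CPM in vehicle and, in KU55933, 20.6 to 25.3 CPM. Sox11 (ENSMUSG00000063632) had 25.8 to 33.3 CPM in vehicle and, in KU55933, 26.0 to 33.7 CPM. For both genes the range of one group lay almost wholly within that of the other. The log2 changes were -0.12 ± 0.11 for Sox4 and 0.08 ± 0.11 for Sox11 (SE, edgeR adjusted p = 0.470 and 0.621). Their 95% intervals were -0.36 to 0.13 and -0.16 to 0.32. With the offset Sox11 turned to -0.10 (edgeR adjusted p = 0.626) and Sox4 was -0.14. Their relative Sox12, the third SoxC gene and one of a list of immature neuron genes, had a log2 change of -0.65 (edgeR adjusted p = 0.0286) and of 0.02 with the offset (adjusted p = 0.961). It has 59.9% GC, against 51.1% for Sox4 and 46.5% for Sox11.

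Dcx, Igfbpl1 and Draxin mark neuroblasts and immature neurons. Dcx (ENSMUSG00000031285), the microtubule-binding protein doublecortin of migrating neuroblasts and the most used marker of newborn neurons, had 27.5, 41.8, 39.0 and 39.1 CPM in vehicle. In KU55933 it had 34.2, 45.7, 30.0 and 37.1 CPM. The lowest value was that of vehicle 1 and the highest that of KU55933 2, and the groups covered nearly the same range. The means were 36.9 ± 6.37 and 36.7 ± 6.63 CPM (SD, n = 4 per group). The log2 change was -0.00 ± 0.15 (SE, edgeR adjusted p = 0.985) with a 95% interval of -0.34 to 0.33. With the offset it was -0.26 ± 0.16 (edgeR adjusted p = 0.473). Dcx was counted 1126 to 1691 times per library.

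Igfbpl1 (ENSMUSG00000035551), a secreted insulin-like growth factor binding protein of neuroblasts, had 6.19, 7.72, 6.49 and 8.80 CPM in vehicle and, in KU55933, 6.55, 5.64, 4.76 and 6.01 CPM. KU55933 1 lay above vehicle 1 and 3, and the other KU55933 libraries lay below all vehicle libraries. The log2 change was -0.35 ± 0.15 (SE), with an unadjusted edgeR p of 0.0383 and an adjusted p of 0.1103. With the offset it was -0.13 ± 0.15 (edgeR adjusted p = 0.710). Draxin (ENSMUSG00000029005), a secreted guidance protein that repels axons, had 3.09 to 4.23 CPM in vehicle and, in KU55933, 2.84 to 3.58 CPM. Its log2 change was -0.18 ± 0.15 (SE, edgeR adjusted p = 0.407) and -0.05 with the offset. It was counted 97 to 171 times per library.

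**Figure D2:**
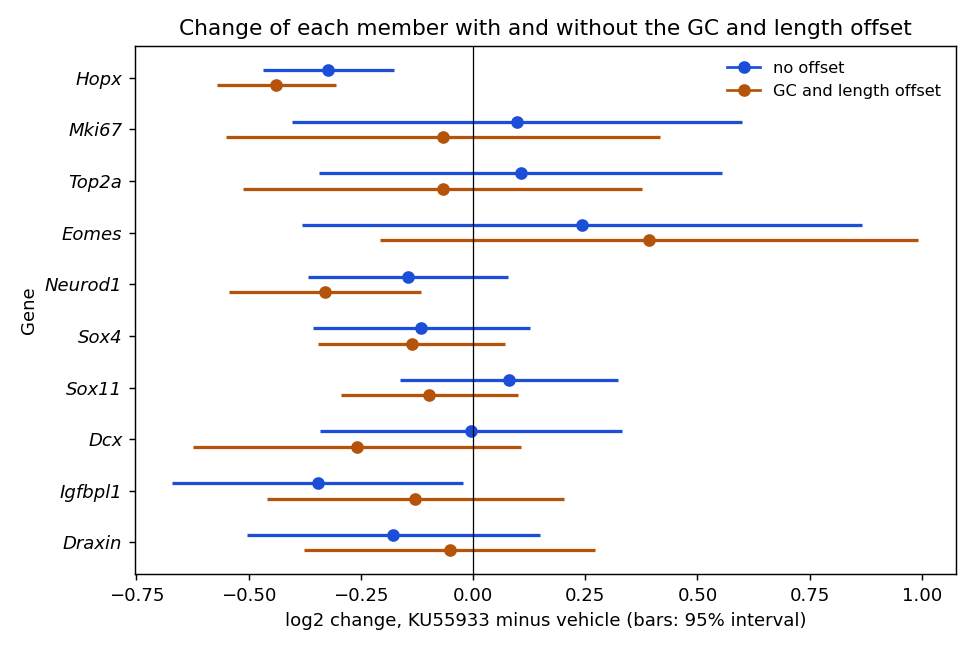
Log2 change of each gene, KU55933 minus vehicle, with its 95% interval from edgeR, without (blue) and with (brown) the GC and length offset. The bars of Hopx stay below 0 in both fits, from -0.47 to -0.18 and from -0.57 to -0.31, while those of the other genes cross 0 in at least 1 of them.

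Each member was also set beside genes of like base composition. Hopx transcripts have 45.6% GC, and the 3036 other tested genes within 2 percentage points had a median log2 change of 0.17. Of these genes 11.9% were called higher and 0.395% lower. Neurod1, at 43.6% GC, also lay below its neighbours in composition, whose median was 0.20, and Dcx, at 40.8% GC, lay below a median of 0.23. Igfbpl1 (55.2% GC) and Draxin (54.3% GC) sat near medians of -0.21 and -0.15, and Eomes (54.4% GC) above one of -0.16. Mki67, Top2a, Sox11 and Sox4 had medians of 0.14, 0.19, 0.14 and 0.01 around them. These are descriptions, and the offset fit is the test that takes the trend into account.

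**Figure D3:**
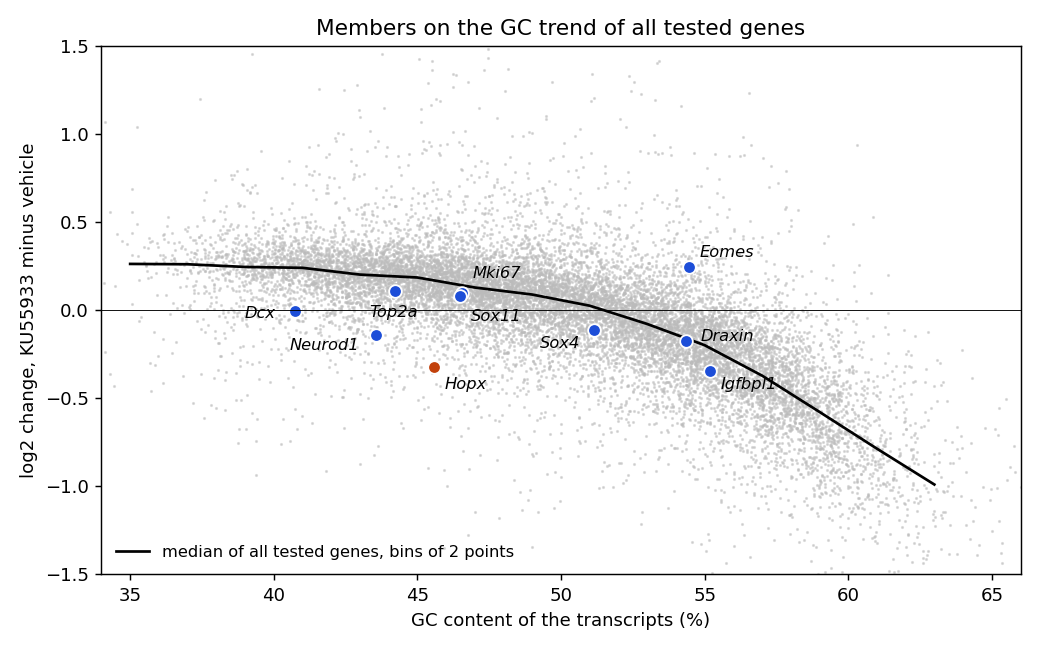
Log2 change of each tested gene (grey) against the GC content of its transcripts; the black line is the median in bins of 2 percentage points, and the labelled points are the 10 members, with Hopx in orange. The line falls from left to right, and Hopx lies at -0.32 under a line near 0.17.

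Levels of different genes were compared as TPM, counts per base of transcript on a common total per library, computed here from annotated transcript lengths. Hopx was the most abundant member, with 125 ± 2.72 TPM in vehicle and 102 ± 1.25 TPM in KU55933 (SD, n = 4 per group), again without overlap of the groups. Neurod1 followed with 25.5 ± 3.34 TPM in vehicle, and then Sox4 with 11.99 ± 1.66, Dcx with 10.5 ± 1.56, Sox11 with 8.34 ± 1.05 and Igfbpl1 with 6.75 ± 1.07 TPM. The lowest were Top2a with 2.00 ± 0.526, Draxin with 1.73 ± 0.223, Eomes with 0.943 ± 0.164 and Mki67 with 0.739 ± 0.198 TPM. In vehicle the ranges of neighbours in this order overlapped for Sox4 and Dcx, Dcx and Sox11, Sox11 and Igfbpl1, Top2a and Draxin, and Eomes and Mki67. They did not overlap between Hopx and Neurod1, Neurod1 and Sox4, Igfbpl1 and Top2a, or Draxin and Eomes. Dcx, Sox4, Sox11 and Igfbpl1 were thus all above Mki67, Top2a and Eomes in vehicle, and Draxin, also a gene of young neurons, was not set apart from Top2a.

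The deposited table is per transcript, and 15 of the 21 member transcripts passed the filter. By edgeR's test over 45343 transcripts, 1 of these 15 was called, a Hopx transcript that was lower in KU55933, where 6.76% of all tested transcripts were called, 5.7% lower and 1.06% higher. Hopx has 3 annotated transcripts that share the same 219 coding bases and differ in the parts that are not translated. ENSMUST00000113453 and ENSMUST00000120827 begin within a few bases of the downstream start and ENSMUST00000081964 at the upstream one. ENSMUST00000113453 took 88.5 to 95.01% of Hopx counts in vehicle and 96.3 to 98.2% in KU55933. It had 57.4, 59.3, 50.7 and 50.3 CPM in vehicle and, in KU55933, 48.3, 42.1, 45.2 and 45.3 CPM. Its log2 change was -0.27 ± 0.09 (SE, edgeR adjusted p = 0.116), so the main transcript on its own did not pass, and with the offset it was -0.32 (adjusted p = 0.386).

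The called transcript was ENSMUST00000120827. It was counted 63, 58, 197 and 214 times in vehicle and 14, 22, 33 and 19 times in KU55933. Vehicle 3 and 4 lay far above vehicle 1 and 2, and all KU55933 libraries lay below both pairs. How many of all tested transcripts had groups apart in this way was not counted. It took 2.36 to 9.17% of Hopx counts in vehicle and 0.835 to 1.88% in KU55933. The log2 change was -2.41 ± 0.53 (SE, edgeR adjusted p = 0.0319). The call held without vehicle 1 (0.0256) or vehicle 2 (0.0284) and ended without any of the other 6 libraries, with adjusted p of 0.0535 to 0.109, and with an offset on transcript GC content and length (0.0557). The change was -2.40 with the offset and -2.65 to -2.08 with a library left out. The 128 bases that this transcript holds beyond the other Hopx transcripts, all outside the coding part, have 75.0% GC. The offset used the GC content of the whole transcript, 48.2%. It could therefore not take out a dependence on the composition of these bases, and such a dependence was not tested. ENSMUST00000081964, from the upstream start, was counted 69, 74, 73 and 45 times in vehicle and 24, 8, 32 and 11 times in KU55933. Its log2 change was -1.60 ± 0.47 (SE, edgeR adjusted p = 0.0878), and -1.60 with the offset (adjusted p = 0.171). Salmon divides reads between transcripts that share most of their sequence, and the uncertainty of that division is not part of these tests.

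**Figure D4:**
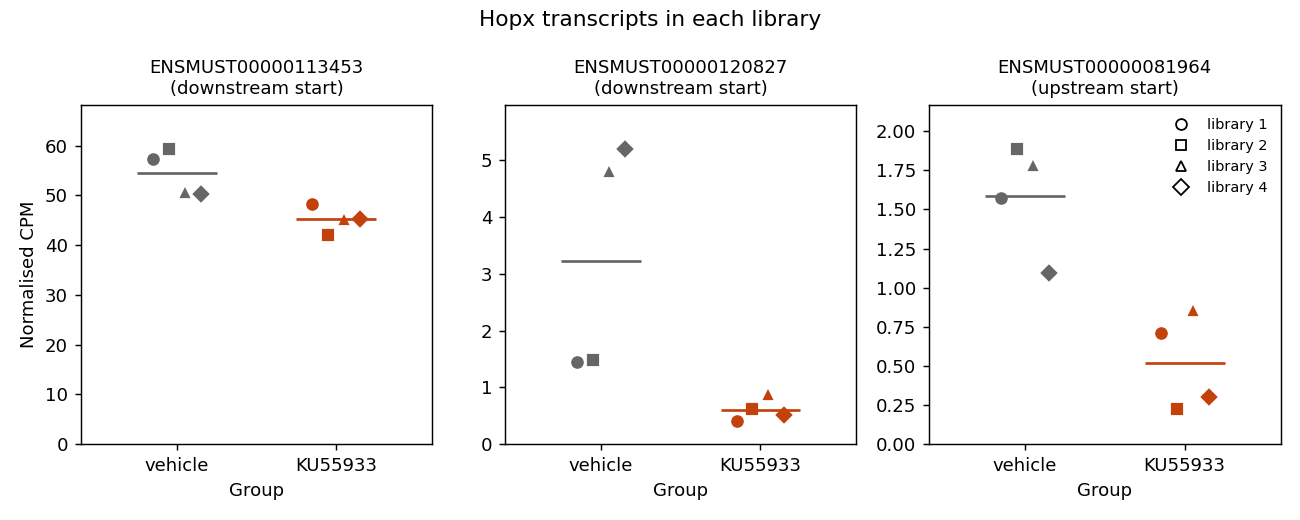
Normalised CPM of the 3 Hopx transcripts in each library, each panel with its own axis from 0; shapes give the library number and bars the group means. The left panel, with nearly all of the counts, shows vehicle at 50.3 to 59.3 and KU55933 at 42.1 to 48.3, and the middle panel shows vehicle 3 and 4 apart from vehicle 1 and 2.

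For the other members 1 transcript carried most counts. ENSMUST00000033642 of Dcx took 94.8 to 97.9% of that gene in every library, and its log2 change was -0.05 ± 0.16 (SE, edgeR adjusted p = 0.911). ENSMUST00000044297, the coding transcript of Igfbpl1, had 5.98 to 8.20 CPM in vehicle and, in KU55933, 4.49 to 6.02 CPM, so the groups met at their edges. Its log2 change was -0.47 ± 0.17 (SE, edgeR unadjusted p = 0.0266 and adjusted p = 0.173), and with the offset -0.01. Sox4, Sox11, Mki67, Draxin and Neurod1 have 1 transcript each in the table.

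Genes that accompany the members along the lineage were taken from lists written with earlier results of these data known. Beside these lists, 6.92% of all tested genes were called higher and 14.6% lower, and with the offset 0.672% and 1.29%. The calls over all genes also moved with the libraries used. They numbered 3338 with all libraries, 1597 without vehicle 3, 4348 without vehicle 1 and 1090 without KU55933 1 and 2 together. Among 24 genes of neural stem cells and radial glia, all tested, 2 rose, 8 fell and 14 did not pass, with a median log2 change of -0.16. The cells that made these mRNAs were not told apart in the tissue, and the part of stem cells in these values was not tested. Id3, an inhibitor of basic helix-loop-helix factors that holds stem cells undifferentiated, had 25.5, 26.4, 36.2 and 34.5 CPM in vehicle and, in KU55933, 12.5, 10.9, 14.7 and 18.3 CPM. Its log2 change was -1.12 ± 0.17 (SE, edgeR adjusted p = 0.00202), and its relative Id1 fell by 0.86 on the log2 scale (adjusted p = 0.0049). Notch1, the receptor that keeps stem cells from differentiating, fell from a mean of 44.2 ± 1.65 to 27.1 ± 4.81 CPM (SD, n = 4 per group; edgeR adjusted p = 0.00228). The other fallen genes were Sox9, Vim, Hes5, Notch2 and Gli1, and the risen ones were Fabp7 and Id4, all chosen after their values were seen. The list has a median GC content of 53.3%. With the offset 0 rose and 2 fell, Id3 (-0.83, edgeR adjusted p = 0.0105) and Sox9 (-0.51, adjusted p = 0.035). Id1 and Notch1 were then -0.61 and -0.37 (adjusted p = 0.0635 and 0.0565). At an unadjusted p under 0.05 there were then 9, and the median was -0.02. The count of fallen genes was 4 without vehicle 3, without KU55933 2 or without both KU55933 1 and 2. That of risen genes was 1 without vehicle 2, 3 or 4 or KU55933 1 or 2, and 0 without KU55933 1 and 2 together.

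Of 12 genes of intermediate progenitors and neuroblasts, 11 were tested, of which 1 rose, 1 fell and 9 did not pass. Tfap2c, with 0 to 15 counts per library, was not tested. Elavl2, a neuronal RNA-binding protein gene also expressed in mature neurons, rose from a mean of 76.0 ± 5.63 to 104 ± 16.1 CPM (SD, n = 4 per group; edgeR adjusted p = 0.0156). The call of Elavl2 ended without KU55933 1 and 2 together (0.079). Mfap4, an extracellular matrix gene, fell from a mean of 5.32 ± 0.842 to 3.67 ± 0.249 CPM (edgeR adjusted p = 0.0244), a call that ended without vehicle 2, vehicle 4 or KU55933 3 (adjusted p up to 0.0802) and without KU55933 1 and 2 together (0.105). The change of Mfap4 was -0.57 without those 2 libraries and -0.62 to -0.45 with 1 library left out, beside -0.54 with all. Cd24a, a surface protein of neuroblasts, had a log2 change of 0.49 (edgeR adjusted p = 0.0548), and it passed without KU55933 4 (0.0242). With the offset Elavl2, Mfap4 and Cd24a were 0.24, -0.36 and 0.31, and none passed (edgeR adjusted p of 0.222 to 0.378). Insm1, a zinc finger factor of newborn progenitors chosen after its values were seen, was then called higher, with 0.71 (adjusted p = 0.0485) against -0.25 without the offset. Insm1 has 62% GC, and before the offset it had 3.34 to 5.91 CPM in vehicle and, in KU55933, 3.10 to 4.20 CPM. Its call thus came from the offset alone.

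Among 27 genes of immature neurons, 0 rose, 5 fell and 22 did not pass, where 6.92% of all tested genes were called higher and 14.6% lower. The median log2 change of the list was 0.06. Its summed level was 5208 to 5866 CPM in vehicle, where Dcx had a mean of 36.9 CPM. Which cells made these mRNAs was not measured, and the part of immature neurons in these values was not tested. The count at an unadjusted p under 0.05 was 12, and DESeq2 called 3 higher and 6 lower. Marcksl1, an actin-regulating protein gene of growing neurites, fell from a mean of 92.5 ± 8.79 to 60.4 ± 1.98 CPM (SD, n = 4 per group; edgeR adjusted p = 0.000792). Fxyd7, a sodium pump regulator, fell by 0.50 and Crmp1, a relay of semaphorin signals, by 0.27 on the log2 scale (edgeR adjusted p = 0.0109 and 0.0223). Tubb3 and Sox12, chosen after their values were seen, were the other fallen genes. The 5 have 55.4 to 59.9% GC, and with the offset 0 of the 27 were called, with 9 at an unadjusted p under 0.05. Marcksl1, Fxyd7 and Crmp1 were then -0.08, 0.06 and -0.04. The fallen numbered 2 without vehicle 2 or 3, 3 without vehicle 4 or KU55933 2 or 3, and 1 without KU55933 1 and 2 together. With KU55933 2 or 4 left out 1 rose, and with vehicle 1 left out 2 rose. Crmp1 lost its call without vehicle 2, 3 or 4 or KU55933 2 (adjusted p up to 0.0775), and Fxyd7 lost it without KU55933 1 and 2 together (0.0553).

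Other genes of cell division were followed alongside Mki67 and Top2a. Of 34 genes of G2 and mitosis, 0 were called in either direction, with 4 at an unadjusted p under 0.05 and 0 called by DESeq2 or limma-voom. Their median log2 change was 0.08, 24 being above and 10 below 0, and with the offset it was -0.04 with 2 at an unadjusted p under 0.05. Their summed level was 116, 91.7, 101 and 99.0 CPM in vehicle and, in KU55933, 107, 110, 122 and 120 CPM, so the groups overlapped. Anln, the anillin gene of cytokinesis, chosen after its values were seen, gave 19.4 to 43.1 CPM of these sums in vehicle and 29.2 to 41.4 CPM in KU55933. Which cells made these mRNAs was not measured, and the part of dividing cells in the sums was not tested. Smc4, a condensin subunit gene, had 8.23 ± 0.997 CPM in vehicle and, in KU55933, 10.04 ± 0.332 CPM (SD, n = 4 per group; edgeR adjusted p = 0.0807). Racgap1, a gene of cytokinesis, and Plk1, a mitotic kinase gene, had log2 changes of 0.29 and -0.59 (edgeR adjusted p = 0.0969 and 0.115). With the offset Smc4, Racgap1 and Plk1 were 0.07, 0.25 and -0.32. Without vehicle 1, 2 genes were called higher and 1, Plk1, lower.

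Of 24 genes of S phase, 23 were tested, of which 2 rose, 2 fell and 19 did not pass, with a median of -0.01. Over all tested genes, 6.92% were called higher and 14.6% lower. Mcm2, a subunit of the replicative helicase, fell from a mean of 5.44 ± 0.618 to 3.72 ± 0.494 CPM (SD, n = 4 per group; edgeR adjusted p = 0.0213), and Cdt1, a licensing factor, from 0.946 ± 0.248 to 0.292 ± 0.167 CPM (adjusted p = 0.0204). Cdt1 was near the floor, with 0.0564 CPM in KU55933 4, where 1 count is about 0.03 CPM, and DESeq2 gave it no adjusted p. Pola1, a subunit of the polymerase that primes replication, rose from a mean of 5.29 ± 0.278 to 6.92 ± 0.752 CPM (edgeR adjusted p = 0.0371), as did Prim1, the primase gene chosen after its values were seen. The fallen pair has 55.4 and 58.7% GC, the risen pair 41.5 and 44.6%. With the offset 0 of the 23 were called, with 2 at an unadjusted p under 0.05, Mcm2 (-0.32) and Cdt1 (-1.11), and Pola1 was 0.17. Without vehicle 3 or 4 or without KU55933 1 and 2 together 0 were called, 1 without vehicle 2 or KU55933 2, and 7 without vehicle 1. Mcm2 lost its call without vehicle 2, 3 or 4 or KU55933 2, Cdt1 without vehicle 3 or 4, and Pola1 without vehicle 2, 3 or 4 or KU55933 1 or 2 (adjusted p up to 0.0697, 0.0634 and 0.104). Tk1, with 5 to 21 counts per library, was not tested.

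Among cell cycle brakes 9 of 10 genes were tested, and 0 were called, with 2 at an unadjusted p under 0.05. DESeq2 called 1 higher, Rb1, the retinoblastoma gene, which had a log2 change of 0.23 in edgeR (adjusted p = 0.063). Trp53, the p53 gene, and Btg2, an antiproliferative gene induced by p53, had log2 changes of -0.26 and -0.23 (edgeR adjusted p = 0.0909 and 0.151). With the offset Rb1, Trp53 and Btg2 were 0.02, -0.11 and -0.28. Without vehicle 1, 2 brakes were called higher and 1, Trp53, lower. Cdkn2a was counted 0 to 2 times per library and was not tested.

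Of 18 signals of the neurogenic niche 17 were tested, and 1 fell. This was Npy, a neuropeptide of interneurons that promotes division of progenitors, with 27.5 to 34.5 CPM in vehicle and, in KU55933, 17.5 to 25.3 CPM (log2 change -0.50, edgeR adjusted p = 0.0175). Its call ended without vehicle 2 (0.0546), without KU55933 1 and 2 together (0.0961) and with the offset (-0.40, adjusted p = 0.0521). Fgf2, a growth factor, and Reln, the reelin gene of Cajal-Retzius cells and interneurons, had log2 changes of 0.31 and 0.24 (edgeR adjusted p = 0.0794 and 0.0951), and 0.09 and 0.07 with the offset. With KU55933 4 or vehicle 1 left out 1 signal was called higher. Dkk1, with 0 to 1 counts, was not tested.

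**Figure D5:**
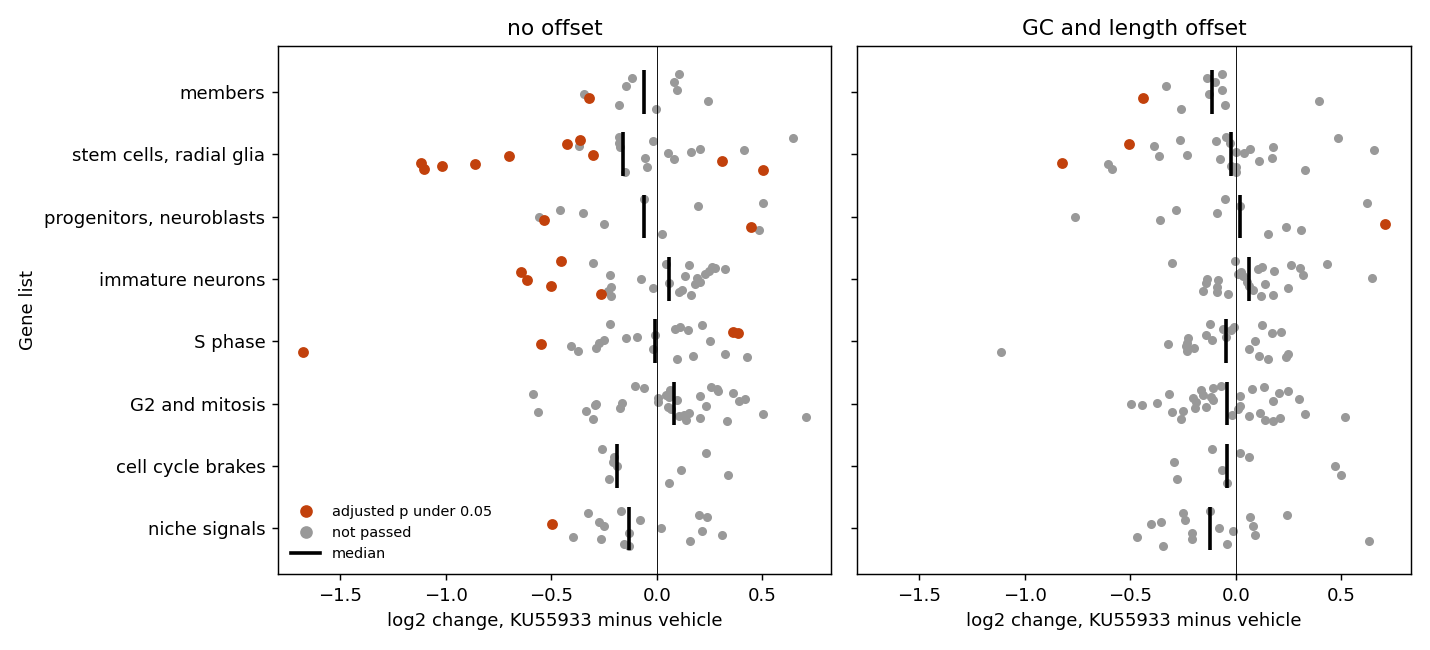
Log2 change of the members and of each gene of the lineage lists, without (left) and with (right) the GC and length offset; orange points have an adjusted p under 0.05 and black bars are medians. Most orange points of the left panel turn grey on the right, where Hopx, Id3, Sox9 and Insm1 are orange.

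Other cells that make some of these mRNAs were followed by markers. Their counts stand beside the 6.92% of all tested genes called higher and the 14.6% called lower. Of 8 markers of oligodendrocyte precursors, which divide in the adult and express Sox4, 1 rose and 5 fell, among them Olig1, from 80.8 ± 16.9 to 41.4 ± 7.95 CPM (SD, n = 4 per group; edgeR adjusted p = 0.00487). The others that fell were Sox10, Cspg4, C1ql1 and Matn4, and Lhfpl3 rose, all chosen after their values were seen. Of these markers 0 rose when KU55933 1, KU55933 2, vehicle 2, vehicle 3 or vehicle 4 was left out, and 2 rose when KU55933 4 was. Without KU55933 1 and 2 together 0 rose and 1 fell, and the adjusted p of Olig1 was 0.0613. These markers have a median GC content of 58.4%, and with the offset 0 were called, with 2 at an unadjusted p under 0.05, and Olig1 was -0.15. Of 7 markers of mature granule neurons 0 rose and 2 fell, C1ql2 and Plk5, chosen after their values were seen, and with the offset 0 were called, with 3 at an unadjusted p under 0.05. Of these markers 1 fell without KU55933 1 and 2 together. Their median log2 change was -0.27, with 6 of the 7 below 0, and -0.30 with the offset. The most abundant of them, Prox1, which all granule neurons express, had 143 to 216 CPM in vehicle and, in KU55933, 138 to 202 CPM (log2 change -0.08, edgeR adjusted p = 0.736, and -0.28 with the offset). Of 6 markers of subventricular GABA neuroblasts, which share Dcx and Sox11, 2 fell, Dlx2 and Dlx5, and their summed level was 20.6 to 29.4 CPM in vehicle and, in KU55933, 19.9 to 24.2 CPM. The most abundant of these markers, Dlx1, had a log2 change of -0.09 (edgeR adjusted p = 0.618) and of 0.07 with the offset. The fallen numbered 1 without vehicle 2 or KU55933 4 and 0 without vehicle 3 or 4 or KU55933 1, 2 or 3. Cajal-Retzius markers were tested for 4 of 5 genes and 0 were called, with 1 at an unadjusted p under 0.05, while 1 rose and 1 fell without vehicle 1. Of 6 tested markers of thalamic and other subcortical excitatory neurons 2 rose, Slc17a6 and Tcf7l2, and 0 fell, and their sum was 74.8 to 84.4 CPM in vehicle and, in KU55933, 76.4 to 128 CPM. The most abundant, Prkcd, had a log2 change of 0.35 (edgeR adjusted p = 0.113) and of 0.40 with the offset. The risen numbered 4 when KU55933 3 was left out, 0 when both KU55933 1 and 2 were, and 1 when KU55933 1, KU55933 4, vehicle 2, vehicle 3 or vehicle 4 was. Dlx2, Dlx5, Slc17a6 and Tcf7l2 were also chosen after their values were seen, and with the offset none of them passed (edgeR adjusted p of 0.0618 to 0.998). The part of these cells in the members' values was not tested.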

How the data were processed

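The authors deposited 1 table of estimated counts per transcript, as whole numbers. The submitters' processing notes name FastQC 0.11.9, Salmon 1.4.0, DESeq2 1.32.0 and build GRCm39. Rounding and filters: not given in the sources used here. Members and lists were chosen with earlier results of these data known. Transcripts were summed per gene, filtered with filterByExpr and scaled by TMM. The groups were compared by the two-sided quasi-likelihood test of edgeR 4.0.16 under R 4.3.3, with limma 3.58.1 and robust dispersion, and Benjamini-Hochberg adjustment over all tested genes, at 0.05. The smallest chi-square per degree of freedom between libraries of a group was 14.6, and none were counted as duplicates.

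GC content and length came from GENCODE mouse release 21, which matched 99.7% of transcripts. The offset was a spline per library on GC (6 degrees of freedom) and log length (5). Alternatives were RLE and upper-quartile scaling, other filters, dispersion without the robust option, a block on replicate number, DESeq2 1.42.0, limma-voom, 1 surrogate variable (sva 3.50.0), a threshold of 0.1 and libraries left out. The tests were tried on simulated data. The text names all members, the 3 genes of smallest p in each lineage list and the most abundant marker of each cell type described; any other gene is said to be chosen after its values were seen. Figures were drawn with Python 3.11.15 and matplotlib 3.10.9.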

Additional observations from a re-analysis of the deposited data

How the results depend on the processing

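Hopx kept its direction and its call in all 30 alternatives, and 0 of the other 9 members were called in any of them. Of the 300 member values, 259 kept their sign. The threshold of 0.1 is the main fit at a looser cut, so the call of Hopx and all signs were fixed there. Dispersion without the robust option gave the same log2 changes as the main fit, so the signs could not differ there either. Over all genes, 3338 were called, against 304 with the GC and length offset, 236 with a GC offset alone, 5085 at a threshold of 0.1, 1090 without KU55933 1 and 2 together and 1597 to 4348 with a library left out. With the offset and a library left out, the calls were 712, 151, 81 and 90 without vehicle 1 to 4 and 195, 79, 128 and 201 without KU55933 1 to 4. Dcx was 0.00031 with upper-quartile scaling, 0.125 with a surrogate variable and -0.131 to 0.0821 with a library left out. The other ranges of that kind were -0.0755 to 0.223 for Mki67, -0.00407 to 0.308 for Top2a and -0.0893 to 0.373 for Eomes.

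With the offset, Sox11, Mki67 and Top2a turned to -0.0970, -0.0665 and -0.0678, and with a GC offset alone to -0.0613, -0.0355 and -0.0681. With the offset, Sox11 was -0.0975, -0.127, -0.148 and -0.0176 without vehicle 1 to 4 and -0.0829, -0.115, -0.134 and -0.0655 without KU55933 1 to 4. Mki67 was -0.208 and -0.0984 without vehicle 2 and 3 and -0.0283, -0.258 and -0.0407 without KU55933 2 to 4, but 0.0214, 0.0287 and 0.0368 without vehicle 1, vehicle 4 and KU55933 1. Top2a was -0.0975, -0.171 and -0.0986 without vehicle 2 to 4 and -0.0673, -0.204 and -0.0435 without KU55933 2 to 4, but 0.111 and 0.0282 without vehicle 1 and KU55933 1. Draxin was 0.0258 without vehicle 2 and 0.00571 without KU55933 1. The cause of these changes was not tested.

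With replicate number as a block, 4444 genes were called, and with the offset too 797, where Sox11, Mki67 and Top2a were -0.0923, -0.0650 and -0.0584. Same-numbered libraries correlated at 0.0393 to 0.294, not all over 0.1, so the numbers were not taken as pairs, though vehicle 1, 2 and 4 correlated best with their own number and vehicle 3 with KU55933 2. Member transcripts called numbered 1, but 0 under the block, 0 with the offset and 0 to 1 with a library left out. Depth limits Eomes, Mki67, Top2a and Draxin, counted 39 to 174 times per library. The edgeR p-values weigh the group difference against the spread between the 4 libraries of a group, estimated with information shared over all genes.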
